A study of Homo sapiens with 6 samples.

Results

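Breast cancer cells under fast fluid flow were compared with the same cells at rest, using 4 of the 6 RNA libraries of the series, which were taken by their labelled treatment. The cells were MDA-MB-231, an established human triple-negative breast cancer line, in its bone-homing variant, and every group shared that line and that genotype label. The static group (2 libraries) had no flow, 0 mL/min, and the high flow group (2 libraries) had 15 mL/min, in a series meant to imitate how fluid moves in bone under load. A low flow group at 1 mL/min (2 libraries) took part in the estimate of spread and is given beside single genes. No other agent, introduced allele or duration of flow is given in the labels, which also do not say whether the libraries of a group came from separate cultures, so the p-values describe no more than how far these libraries differ from each other, which may be technical. All genes of the table were considered, and the 20676 of 60591 with enough counts were tested.

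Loading of the skeleton drives fluid through the spaces of bone, and cells there sense the resulting shear through integrins, the cytoskeleton and ion channels. In many adherent cells such shear is known to act on immediate early transcription factors, on targets of the transcriptional coactivator YAP, and on secreted vasoactive and growth factors. Breast cancer cells that settle in bone are known to secrete factors that act on osteoblasts, which build bone, and on osteoclasts, which resorb it.

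The static libraries held 17822642 and 23544307 counts and the high flow libraries 43965176 and 53279537, so the static side had the smaller depth. The labels call the cells "endothelial cancer cells", but endothelial markers were uneven, and several of the defining ones were at or near 0. CDH5, the vascular endothelial cadherin, reached at most 0.0869 CPM (counts scaled by library size) in the 6 libraries, VWF, the von Willebrand factor, at most 0.221 CPM, and CLDN5, the endothelial claudin, at most 0.0234 CPM. Others were present, with TIE1 at 29.9 to 44.2 CPM, ESAM at 24.3 to 37.5 CPM, PECAM1 at 8.32 to 14.1 CPM and EGFL7 at 8.35 to 9.99 CPM. The 10 endothelial markers together summed to 74.0 to 97.4 CPM in static and 101 to 104 CPM in high flow, with 1 marker higher (PECAM1) and 2 lower (KDR and ERG), calls that did not hold in all fits. VIM, the intermediate filament of mesenchymal cells, lay between 3618 and 5031 CPM. S100A4, another marker of the line, lay between 1.56 and 3.27 CPM. Among 7 hormone receptor and luminal breast markers, PGR, the progesterone receptor, was at 0 in all 6 libraries. ESR1 reached at most 0.391 CPM and CDH1 at most 0.0563 CPM. The rest were present, with ERBB2 at 49.6 to 68.5 CPM and FOXA1 at 13.05 to 19.5 CPM. GATA3 lay at 6.96 to 9.097 CPM and EPCAM at 2.69 to 4.26 CPM. The 7 together summed to 82.1 to 97.8 CPM, and 1 of them (ERBB2) was higher. Summed markers of osteoblasts, osteoclasts, stromal cells, leukocytes and red cells each stayed at or below 5.78 CPM, and 1 leukocyte marker was lower in the test. The column names place static and low flow in 1 sequencing lane and high flow in another, so lane and flow cannot be told apart in any result below. Mitochondrial genes took 7.03% and 10.4% of counts in static and 8.69% and 8.01% in high flow, and the GC content weighted by counts was 48.8% and 48.3% in static and 49.3% and 48.9% in high flow.

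At an adjusted p under 0.05, 1549 genes (7.49% of those tested) were higher and 1329 (6.43%) were lower under high flow, and the median log2 fold change of all tested genes was 0.00. Of these, 217 genes (1.05%) were higher and 290 (1.4%) lower by at least 2-fold. How many genes passed depended on single libraries. The counts were 234 higher and 160 lower when static replicate 2 was left out. They were 178 and 122 when high flow replicate 1 was left out, and 651 and 367 when high flow replicate 2 was. Genes are therefore called steady below where they passed in the same direction without each of the 4 libraries in turn and with offsets for transcript length and GC content, where their groups did not overlap, and where they averaged at least 4 CPM. This held for 122 genes higher (0.59% of those tested) and 58 lower (0.281%). For comparison, the 2 static values lay wholly below the 2 high flow values in 29.9% of all tested genes and wholly above in 29.4%.

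**Figure D1:**
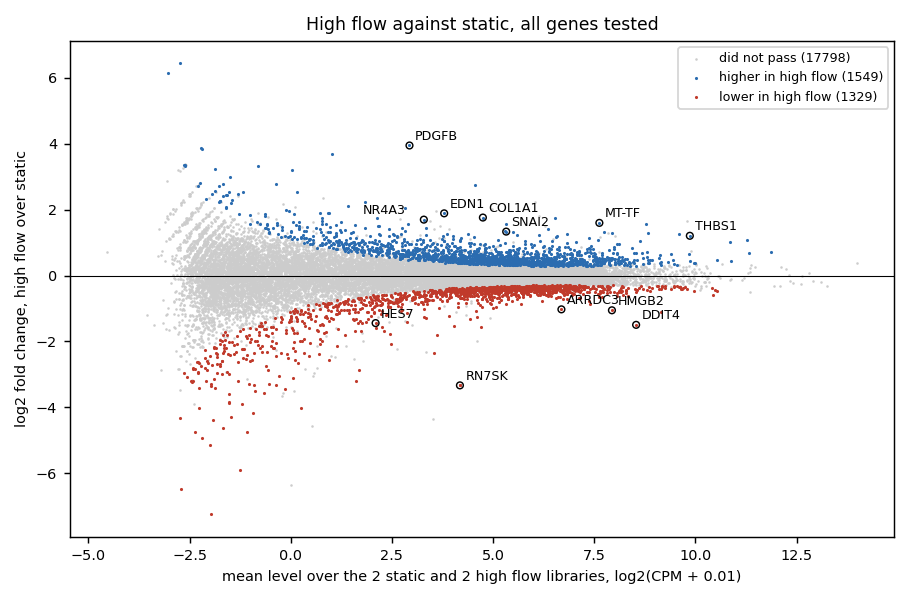
Log2 fold change of high flow over static against the mean level over the static and high flow libraries, as log2(CPM + 0.01), for the 20676 tested genes, one point per gene, with the 1549 genes that were higher in blue and the 1329 that were lower in red. Circled and labelled are some of the steady genes, among which PDGFB lies highest and RN7SK lowest.

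Named genes below carry CPM values in the order replicate 1 and replicate 2, and fold changes are log2 of high flow over static with a standard error (SE). Where a gene is said to move from one pair of values to another, the first pair is static and the second high flow. The lists of related genes hold members chosen by known function, and counts that an alternative fit moved more than 1.5 times are followed by the counts in those fits, or by their range over the fits in brackets. Where no member of a list passed the edgeR test in 1 direction, the number with an unadjusted p under 0.05 the number by DESeq2 and the range over the fits follow in brackets. PDGFB had the largest steady increase and RN7SK the largest steady decrease. Each list count is to be read beside the shares of all tested genes, 7.49% higher and 6.43% lower. Positions are from GENCODE 29 on GRCh38.

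Secreted growth factors included the largest steady increase. PDGFB (chromosome 22, 39223359 to 39244751), the B chain of platelet-derived growth factor, measured 0.937 and 0.913 CPM in static, 3.42 and 5.84 CPM in low flow and 15.9 and 12.8 CPM in high flow. Its log2 fold change was 3.95 (SE 0.29, adjusted p = 4.47e-06), and both high flow libraries lay above both low flow libraries, which lay above both static libraries. EDN1 (chromosome 6, 12290363 to 12297194), which encodes the vasoconstrictor endothelin-1, measured 6.17 and 5.61 CPM in static and 22.4 and 21.1 CPM in high flow (log2 fold change 1.89, SE 0.19, adjusted p = 7.89e-05). ANGPTL4, a secreted inhibitor of lipoprotein lipase, measured 44.5 and 39.4 CPM in static and 106 and 89.8 CPM in high flow, a 2.34-fold increase (adjusted p = 4.47e-06). All 3 were steady. Of 28 growth factor ligands tested, 9 were higher and 1 (0 to 4) was lower, with a median log2 fold change of 0.27. AREG, an EGF family ligand, was the member that fell, from 32 and 31.1 CPM to 21.4 and 21.6 CPM (log2 fold change -0.55, adjusted p = 0.00731). Higher ligands numbered 3 with high flow replicate 1 left out and 4 with static replicate 2 left out. AREG no longer passed without static replicate 2 (adjusted p = 0.0708), high flow replicate 1 (0.106) or high flow replicate 2 (0.0639).

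Receptors of growth factors included 1 steady gene. Of 26 growth factor receptors tested, 5 were higher and 2 (0 to 2) were lower, with a median log2 fold change of 0.19. DDR1, a receptor kinase that binds collagen, rose from 47.7 and 36.3 CPM to 87.4 and 73.8 CPM (log2 fold change 0.94, SE 0.15, adjusted p = 0.00312) and was the 1 steady receptor. PDGFRB, the receptor for the PDGFB product, did not pass, at 4.63 and 3.26 CPM in static and 5.34 and 5.14 CPM in high flow (log2 fold change 0.42, adjusted p = 0.164). IGF1R, the receptor for insulin-like growth factors, rose from 89.4 and 95 CPM to 131 and 129 CPM (log2 fold change 0.49, adjusted p = 0.00526). The number of receptors higher was 1 with high flow replicate 1 left out and 2 with static replicate 2 or high flow replicate 2 left out or with the length and GC offsets. IGF1R no longer passed without high flow replicate 1 (adjusted p = 0.0835).

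Immediate early genes, which respond to stimuli before new proteins are made, were higher in 23.3% of members, against 7.49% of all tested genes. They were lower in 6.67%, near the 6.43% of all tested genes. NR4A3, an orphan nuclear receptor, measured 3.53 and 5.56 CPM in static, 4.98 and 4.22 CPM in low flow and 17.5 and 12.5 CPM in high flow, so that only the high flow libraries were high. Its log2 fold change was 1.70 (SE 0.22, adjusted p = 0.00044), and low flow against static did not pass (adjusted p = 0.998). EGR3, a zinc finger factor induced by growth factors, was likewise highest in high flow, at 5.95 and 4.87 CPM in static, 7.09 and 6.23 CPM in low flow and 17.6 and 11.9 CPM in high flow (log2 fold change 1.45, adjusted p = 0.000356). KLF10, a factor induced by TGF-beta, rose from 115 and 119 CPM to 214 and 194 CPM (log2 fold change 0.80, adjusted p = 0.000381), and these 3 genes were steady. EGR1, a paralog of EGR3, went the other way, from 764 and 796 CPM to 402 and 325 CPM (log2 fold change -1.10, adjusted p = 0.0159), with low flow at 437 and 284 CPM. KLF2, a factor well known to respond to shear in endothelial cells, did not pass and its groups overlapped, at 28.2 and 35.4 CPM in static and 41.9 and 34.8 CPM in high flow (adjusted p = 0.591). Of 30 immediate early factors tested, 7 were higher and 2 (0 to 4) lower, and 3 were steady. In other fits the higher members numbered 4 with high flow replicate 1 left out. EGR1 no longer passed without static replicate 1 (adjusted p = 0.104) or static replicate 2 (0.187).

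Genes under ERK and cAMP control were mixed, with 27.3% and 19.2% of members higher in the main fit, against 7.49% of all tested genes. The members lower made up 13.6% and 7.69%, against 6.43%. ERK feedback inhibitors, which are induced by ERK signalling and dampen it, had 6 members higher and 3 (0 to 3) lower of 22, with none steady, and the number higher became 0 with static replicate 2 or high flow replicate 1 left out and 3 with high flow replicate 2 left out. DUSP6, a phosphatase of ERK, fell from 286 and 307 CPM to 219 and 202 CPM (log2 fold change -0.49, adjusted p = 0.00375). DUSP10, a phosphatase of p38 and JNK, rose from 27.6 and 26.6 CPM to 43.5 and 35.7 CPM (log2 fold change 0.54, adjusted p = 0.0055). Of 26 genes of the cAMP response, 5 were higher and 2 (2 to 4) lower, and both lower genes were steady, while the number higher became 0 with static replicate 2 left out, 1 with high flow replicate 1 left out, 2 with high flow replicate 2 left out or with the length and GC offsets and 3 with the replicate block. PDE4B, which breaks down cAMP, measured 12.4 and 14.2 CPM in static, 13 and 13.2 CPM in low flow and 7.93 and 6.8 CPM in high flow (log2 fold change -0.86, adjusted p = 0.00119). PER1, a clock gene with a cAMP response element, fell from 58.6 and 53 CPM to 34.5 and 30.9 CPM (log2 fold change -0.77, adjusted p = 0.000274). SIK1B, a near-identical copy of the salt-inducible kinase SIK1 whose reads cannot be told apart from it, rose from 12.1 and 12.5 CPM to 28 and 30.4 CPM (log2 fold change 1.25, adjusted p = 4.47e-06). DUSP6 and DUSP10 no longer passed without static replicate 2 (adjusted p = 0.0605 and 0.0753). DUSP10 no longer passed without high flow replicate 1 (adjusted p = 0.14). DUSP6 no longer passed without high flow replicate 2 (adjusted p = 0.0627).

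The TGF-beta and BMP pathway had 16 members higher and 1 (0 to 2) lower of 43, with a median log2 fold change of 0.18 and no steady member. BMP4, a ligand, rose from 38.1 and 35.7 CPM to 64.1 and 51 CPM (log2 fold change 0.64, adjusted p = 0.00194). BMP2, a ligand that induces bone formation, rose from 11.9 and 11 CPM to 23.4 and 19.6 CPM (log2 fold change 0.91, adjusted p = 0.00383). BAMBI, a decoy receptor, rose from 11.3 and 11.7 CPM to 20.7 and 18.7 CPM (log2 fold change 0.77, adjusted p = 0.0022). FSTL3, a secreted antagonist of activin, rose beside the ligands, from 67.8 and 63.6 CPM to 101 and 91.1 CPM (log2 fold change 0.55, adjusted p = 0.00299). GDF15, a stress-induced member of the family, was the 1 that fell, from 15.3 and 13.2 CPM to 5.48 and 6.23 CPM (log2 fold change -1.28, adjusted p = 0.00618). The number higher became 2 with high flow replicate 1 left out, 4 with static replicate 2 left out and 10 with static replicate 1 left out. GDF15 no longer passed without static replicate 1 (adjusted p = 0.0545). BMP4, BMP2, FSTL3 and GDF15 no longer passed without static replicate 2 (adjusted p = 0.0516, 0.117, 0.0618 and 0.0818). BMP4, BMP2, BAMBI, FSTL3 and GDF15 no longer passed without high flow replicate 1 (adjusted p = 0.0753, 0.0647, 0.0651, 0.0818 and 0.0732).

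Helix-loop-helix inhibitors of the ID and HES families split. ID3 rose from 11.5 and 12 CPM to 21.7 and 21.8 CPM (log2 fold change 0.89, SE 0.12, adjusted p = 0.000307) and was steady. ID2, its paralog, fell from 35.1 and 42.4 CPM to 13.4 and 12.7 CPM (log2 fold change -1.57, SE 0.22, adjusted p = 0.00461), with low flow at 18.4 and 11.2 CPM. Both ID genes encode proteins that block basic helix-loop-helix factors, and they moved in opposite directions in the same libraries. HES7, known as an oscillating repressor of the embryonic segmentation clock, fell from 6.23 and 6.26 CPM to 2.15 and 2.42 CPM (log2 fold change -1.44, adjusted p = 0.000282). BHLHE40, a repressor of clock genes, rose from 172 and 190.1 CPM to 347 and 307 CPM (log2 fold change 0.85, adjusted p = 0.000298). HES7 and BHLHE40 were steady. The list of 14 had 4 members higher and 3 (1 to 5) lower, and the number higher became 2 with static replicate 2 or high flow replicate 1 left out. ID2 no longer passed without static replicate 2 (adjusted p = 0.0818).

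Genes of the Wnt and Notch pathways were higher where they passed. WNT9A, a Wnt ligand, measured 3.36 and 4.17 CPM in static, 7.84 and 8.46 CPM in low flow and 12.4 and 9.99 CPM in high flow (log2 fold change 1.56, SE 0.18, adjusted p = 4.05e-05). WNT7B, another Wnt ligand, rose from 26.6 and 22.7 CPM to 51.1 and 42.4 CPM (log2 fold change 0.92, adjusted p = 0.000224). PORCN, the acyltransferase that Wnt ligands need for secretion, measured 27.1 and 27.7 CPM in static, 29.1 and 28.1 CPM in low flow and 45.2 and 43.2 CPM in high flow (log2 fold change 0.69, adjusted p = 0.000523). These 3 were steady, as was DKK1, a secreted Wnt antagonist described below, so that an inhibitor rose beside the ligands. Of 37 Wnt pathway genes 9 were higher and 0 lower (0 unadjusted, 0 by DESeq2, 0 to 1 over the fits), and the number higher became 4 with static replicate 2 or high flow replicate 1 left out and 5 with high flow replicate 2 left out. Of 22 Notch pathway genes 6 were higher and 0 lower (1 unadjusted, 0 by DESeq2, 0 in every fit), and the number higher became 1 with high flow replicate 1 left out and 2 with static replicate 2 or high flow replicate 2 left out. LFNG, a glycosyltransferase that modifies Notch receptors, rose from 17 and 12.4 CPM to 29.5 and 28.4 CPM (log2 fold change 0.99, adjusted p = 0.000456) and was steady, with low flow at 27.9 and 33.6 CPM. JAG1, a Notch ligand, rose from 283 and 314 CPM to 421 and 410.3 CPM (log2 fold change 0.48, adjusted p = 0.00545). JAG1 no longer passed without high flow replicate 1 (adjusted p = 0.089).

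**Figure D2:**
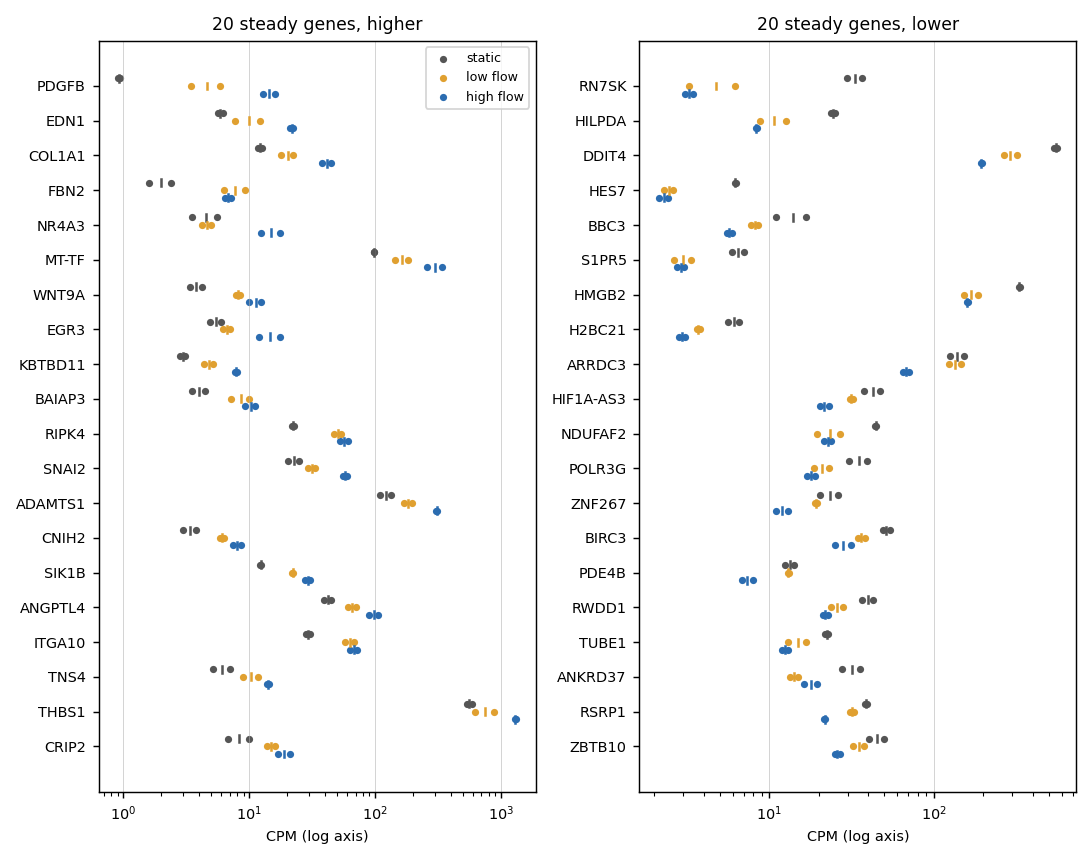
Expression (CPM, log axis) of steady genes with the largest changes in each of the 6 libraries, one point per library, grouped by static, low flow and high flow. In every gene shown the 2 static points and the 2 high flow points do not overlap, as the rule for steady genes requires.

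Genes of the Hippo pathway core and targets of YAP formed 1 list, whose members were higher where they passed. YAP is the coactivator that binds TEAD factors and answers to cell shape and tension. CCN2, a matricellular protein also called CTGF, measured 265 and 249.8 CPM in static, 315 and 226 CPM in low flow and 568 and 509 CPM in high flow. Its log2 fold change was 1.06 (SE 0.13, adjusted p = 0.000399), and the low flow libraries lay on either side of the static ones. F3, the tissue factor that starts coagulation, measured 68.4 and 76.5 CPM in static, 78.1 and 77.6 CPM in low flow and 122 and 128 CPM in high flow (log2 fold change 0.79, adjusted p = 9.37e-05). AJUBA, a LIM protein that restrains the Hippo kinases, rose from 107 and 98.8 CPM to 165 and 183 CPM (log2 fold change 0.76, adjusted p = 0.000279). These 3 were steady. AMOTL2, a YAP target that binds YAP, rose from 174 and 170.0 CPM to 301 and 284 CPM (log2 fold change 0.77, adjusted p = 0.00109). Of 34 members 9 were higher and 0 lower (0 unadjusted, 0 by DESeq2, 0 to 1 over the fits), with a median log2 fold change of 0.12, and the number higher became 4 with static replicate 2 or high flow replicate 1 left out and 5 with high flow replicate 2 left out. AMOTL2 no longer passed without static replicate 2 (adjusted p = 0.0539).

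CCN2 is widely used as a reporter of TEAD factors, which bind the motif GGAATG, and its promoter is shown for the copies of that motif it holds. The 250 bases before the RefSeq start (GRCh38.p14, chr6:131951373-131951622, minus strand) are printed 5′ to 3′ on the strand of the gene, with each GGAATG in capitals. A match is a description of letters and not evidence of binding.
CCN2: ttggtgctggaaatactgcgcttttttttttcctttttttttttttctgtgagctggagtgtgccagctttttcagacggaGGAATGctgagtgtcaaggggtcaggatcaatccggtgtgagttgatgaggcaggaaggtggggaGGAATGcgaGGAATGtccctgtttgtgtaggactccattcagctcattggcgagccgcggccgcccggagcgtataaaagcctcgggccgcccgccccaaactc
The 3 matches begin 169, 104 and 95 bases before the start. The motif was present, on either strand, in 9.67% of the 11894 promoters of tested genes. It was in 9.13% of those of genes that rose and 9.85% of those of genes that fell. Among the lists scanned it was in 5 of 25 (20.0%) for Hippo and YAP, 5 of 36 (13.9%) for G2 and mitosis and 5 of 38 (13.2%) for S phase. For immediate early factors it was in 2 of 22 (9.09%), and for ATF4 in 0 of 26.

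Ion channels opened by force or by ATP, which cells under shear release, had 5 members higher and 2 (0 to 4) lower of 33. These shares were 15.2% and 6.06%, against 7.49% and 6.43% of all tested genes, so the share lower was near that of all genes. PKD1, the large membrane protein that with polycystin-2 is known for flow sensing in kidney cells, rose from 43.1 and 35.8 CPM to 67.5 and 65.8 CPM (log2 fold change 0.76, adjusted p = 0.00182). PIEZO1, a channel opened by membrane tension, measured 193 and 177 CPM in static and 249 and 236 CPM in high flow (log2 fold change 0.39, adjusted p = 0.0127), with a log2 fold change of 0.04 once length and GC were offset (adjusted p = 0.768). Channels that were higher numbered 0 with static replicate 2 left out, 1 with high flow replicate 1 left out or with the length and GC offsets and 2 with high flow replicate 2 left out. PKD1 and PIEZO1 no longer passed without static replicate 2 (adjusted p = 0.0586 and 0.13). PIEZO1 no longer passed without high flow replicate 1 (adjusted p = 0.153). PIEZO1 no longer passed without high flow replicate 2 (adjusted p = 0.0643). PKD1 and PIEZO1 no longer passed with offsets for length and GC (adjusted p = 0.062 and 0.768).

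Matrix genes held the largest share of members higher among the structural lists. Of 33 laminins, fibrillins and matrix glycoproteins 16 were higher and 1 (0 to 2) lower, with a median log2 fold change of 0.41, 5 of them steady. THBS1, thrombospondin-1, a matricellular protein that activates latent TGF-beta, measured 533 and 592 CPM in static, 877 and 625 CPM in low flow and 1312 and 1285 CPM in high flow (log2 fold change 1.21, SE 0.14, adjusted p = 0.000119). FBN2, a fibrillin of elastic microfibrils, measured 1.6 and 2.39 CPM in static and 7.16 and 6.46 CPM in high flow (log2 fold change 1.75, SE 0.24, adjusted p = 0.000298), with low flow already at 9.18 and 6.26 CPM. THBS3, a thrombospondin found in bone, rose from 14.7 and 14.3 CPM to 24.3 and 25.4 CPM (log2 fold change 0.78, adjusted p = 0.00071). In THBS1 the high flow libraries stood above all others, whereas in FBN2 the values of both flow groups overlapped each other and lay above static. Among 26 collagen chains 7 were higher and 0 lower (2 unadjusted, 0 by DESeq2, 0 to 1 over the fits). COL1A1, the main chain of the fibrillar collagen of bone, measured 11.7 and 12.7 CPM in static, 22.3 and 17.9 CPM in low flow and 45 and 38 CPM in high flow (log2 fold change 1.76, SE 0.14, adjusted p = 1.47e-06). COL7A1, which forms anchoring fibrils, rose from 204 and 179 CPM to 324 and 293 CPM (log2 fold change 0.69, adjusted p = 0.000436). The 5 genes were steady. The number of glycoproteins higher was 5 with static replicate 2 left out and 6 with high flow replicate 1 left out, and that of collagens was 2 with high flow replicate 1 left out, 3 with static replicate 2 left out and 4 with static replicate 1 or high flow replicate 2 left out.

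Among genes that finish the matrix, 20.8% and 21.9% of the members of the lists below were higher in the main fit, against 7.49% of all tested genes. The members lower made up 4.2% and 3.1%, against 6.43%. Of 24 cross-linking and folding genes 5 were higher and 1 (0 to 3) lower, and the number higher became 0 with static replicate 2 left out, 1 with high flow replicate 1 left out, 2 with the length and GC offsets, 3 with static replicate 1 or high flow replicate 2 left out, 9 with no expression filter and 10 with low flow replicate 1 or low flow replicate 2 left out or with the 4 libraries alone. LOXL4, a lysyl oxidase that cross-links collagen and elastin, rose from 3.2 and 2.35 CPM to 13.3 and 9.63 CPM (log2 fold change 2.06, SE 0.30, adjusted p = 0.00348). TGM2, a transglutaminase, fell from 65.2 and 54.2 CPM to 44.4 and 47.3 CPM (log2 fold change -0.38, adjusted p = 0.0265). Of 32 genes of proteoglycans and hyaluronan 7 were higher and 1 (0 to 3) was lower, and the number higher became 2 with static replicate 2 or high flow replicate 1 left out, 4 with high flow replicate 2 left out, with the length and GC offsets or with the replicate block and 12 with low flow replicate 1 or low flow replicate 2 left out, with no expression filter or with the 4 libraries alone. HAS3, a hyaluronan synthase, measured 11.3 and 11.7 CPM in static, 17.6 and 21.6 CPM in low flow and 24.1 and 25 CPM in high flow (log2 fold change 1.09, SE 0.13, adjusted p = 6.32e-05), and was steady. HSPG2, the basement membrane proteoglycan perlecan, rose from 36.2 and 36.8 CPM to 56.6 and 58.2 CPM (log2 fold change 0.65, adjusted p = 0.000857), and in each of these 2 genes all static values lay below all others. HMMR, a hyaluronan receptor that is also a mitotic spindle protein, was the 1 member that fell. TGM2 no longer passed without static replicate 1 (adjusted p = 0.192). LOXL4 no longer passed without static replicate 2 (adjusted p = 0.101). TGM2 no longer passed without high flow replicate 1 (adjusted p = 0.238). TGM2 no longer passed without high flow replicate 2 (adjusted p = 0.091). HSPG2 no longer passed with offsets for length and GC (adjusted p = 0.104).

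Several secreted proteases were higher. ADAMTS1, a secreted protease of versican and aggrecan that is found in bone metastasis signatures of this line, measured 110.3 and 134 CPM in static, 195 and 169 CPM in low flow and 313 and 304 CPM in high flow. Its log2 fold change was 1.33 (SE 0.11, adjusted p = 2.21e-06), and the 3 groups did not overlap. ADAMTS7, a protease of cartilage oligomeric matrix protein, rose from 6.51 and 5.74 CPM to 13.1 and 12.8 CPM (log2 fold change 1.09, adjusted p = 0.000523). MMP1, interstitial collagenase, did not pass, at 39.9 and 50.1 CPM in static and 55.3 and 49.5 CPM in high flow (adjusted p = 0.708). PLAU, the urokinase that turns plasminogen into plasmin, measured 193 and 173 CPM in static, 245 and 192 CPM in low flow and 359 and 348 CPM in high flow (log2 fold change 0.95, SE 0.11, adjusted p = 8.7e-05). ADAMTS1, ADAMTS7 and PLAU were steady. Of 28 metalloproteases and their inhibitors 5 were higher and 0 lower (2 unadjusted, 1 by DESeq2, 0 to 1 over the fits), and the number higher was 2 with static replicate 2, high flow replicate 1 or high flow replicate 2 left out or with the length and GC offsets and 8 with low flow replicate 1 or low flow replicate 2 left out or with no expression filter.

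Adhesion genes were higher where they passed. Of 39 integrins and focal adhesion genes 13 were higher and 0 lower (2 unadjusted, 1 by DESeq2, 0 to 2 over the fits), with a median log2 fold change of 0.32. ITGA10, an integrin chain that binds collagen, measured 30.2 and 28 CPM in static, 58.1 and 68.3 CPM in low flow and 72 and 63.6 CPM in high flow (log2 fold change 1.22, SE 0.11, adjusted p = 4.47e-06). TNS4, a tensin of focal adhesions, rose from 7.06 and 5.13 CPM to 14.2 and 13.9 CPM (log2 fold change 1.22, SE 0.17, adjusted p = 0.000416). NEDD9, a scaffold of focal adhesions known for a role in metastasis, measured 5.51 and 6.69 CPM in static, 23.1 and 14.9 CPM in low flow and 46.2 and 36.1 CPM in high flow (log2 fold change 2.74, SE 0.25, adjusted p = 0.00097). ITGA10 was near its high flow level at low flow, while NEDD9 stood in 3 separate levels. ITGA10 and TNS4 were steady. TLN1, the talin that links integrins to actin, rose from 339 and 379.6 CPM to 550.0 and 519.9 CPM (log2 fold change 0.57, adjusted p = 0.00278). In other fits the higher members numbered 3 with high flow replicate 1 left out and 4 with static replicate 2 left out. NEDD9 no longer passed without static replicate 2 (adjusted p = 0.063). TLN1 no longer passed without high flow replicate 1 (adjusted p = 0.072). TLN1 no longer passed with offsets for length and GC (adjusted p = 0.0515).

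In the main fit 13.3% and 28.1% of the members of the cytoskeletal lists were higher, against 7.49% of all tested genes. The members lower made up 2.2% and 3.1%, against 6.43%. Of 45 genes of actomyosin and SRF targets 6 were higher and 1 (0 to 3) was lower, and the number higher became 1 with high flow replicate 1 left out and 2 with static replicate 2 left out. Of 32 large linkers such as spectrins and plectin 9 were higher and 1 (0 to 3) was lower, but with the length and GC offsets 3 were higher and 3 lower, and the number higher became 1 with high flow replicate 1 left out, 3 with the length and GC offsets, 4 with high flow replicate 2 left out, 5 with static replicate 1 or static replicate 2 left out and 14 with no expression filter. AHNAK2, a giant scaffold protein, was the 1 steady linker and rose from 102 and 133 CPM to 214 and 209.8 CPM (log2 fold change 0.85, adjusted p = 0.00165).

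Regulators of epithelial and mesenchymal state moved in both directions. SNAI2, a repressor of epithelial genes, measured 20.4 and 25 CPM in static, 33.4 and 29.1 CPM in low flow and 59.5 and 55.3 CPM in high flow (log2 fold change 1.33, SE 0.12, adjusted p = 3.35e-06), and was steady. ESRP1, an epithelial splicing factor, fell from 2.37 and 2.65 CPM to 0.959 and 0.845 CPM (log2 fold change -1.48, adjusted p = 0.0142). KRT18, a keratin of simple epithelia, rose from 177 and 164 CPM to 237 and 217 CPM (log2 fold change 0.42, adjusted p = 0.00916). Of 20 regulators of the epithelial to mesenchymal transition 4 were higher and 2 (0 to 3) lower, with a median of -0.06, and the number higher became 1 with static replicate 2 or high flow replicate 1 left out and 2 with high flow replicate 2 left out. RIPK4, a kinase of keratinocyte differentiation, rose from 21.8 and 22.8 CPM to 60.8 and 52.5 CPM (log2 fold change 1.34, adjusted p = 2.68e-06) and was steady, with low flow at 46.8 and 54 CPM. PKP1, a desmosomal plakophilin, fell from 1.87 and 1.78 CPM to 0.351 and 0.263 CPM (log2 fold change -2.57, adjusted p = 0.00103) and passed without each of the 4 libraries, at a mean under 4 CPM. ESRP1 no longer passed without static replicate 1 (adjusted p = 0.0518). ESRP1 and KRT18 no longer passed without static replicate 2 (adjusted p = 0.158 and 0.104). ESRP1 and KRT18 no longer passed without high flow replicate 1 (adjusted p = 0.108 and 0.148). ESRP1 no longer passed without high flow replicate 2 (adjusted p = 0.105).

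Factors that act on bone cells were higher in 6 of 20 cases and lower in 1 (0 to 2), and the number higher became 3 with high flow replicate 1 left out. PTHLH, the parathyroid hormone-related protein that drives osteoclast formation through osteoblasts, measured 5.35 and 6.17 CPM in static, 8.74 and 7.94 CPM in low flow and 14.7 and 10.4 CPM in high flow (log2 fold change 1.11, SE 0.18, adjusted p = 0.00101). DKK1, which inhibits osteoblasts by blocking Wnt signals, measured 58.9 and 59.9 CPM in static, 56.7 and 49.9 CPM in low flow and 97.3 and 87.4 CPM in high flow (log2 fold change 0.64, adjusted p = 0.000929). Both were steady together with ADAMTS1, and DKK1 was high in the high flow libraries only. IL11, a cytokine of the bone metastasis signature of this line, passed narrowly at 41.1 and 35.1 CPM in static and 64.7 and 47 CPM in high flow (log2 fold change 0.55, adjusted p = 0.0496). CXCR4, a chemokine receptor of the same signature, did not pass (log2 fold change 0.29, adjusted p = 0.743). RUNX2, the master factor of osteoblasts, fell from 65.8 and 64.7 CPM to 49.2 and 51.7 CPM (log2 fold change -0.37, adjusted p = 0.0168). IL11 and RUNX2 no longer passed without static replicate 1 (adjusted p = 0.114 and 0.0533). IL11 and RUNX2 no longer passed without static replicate 2 (adjusted p = 0.342 and 0.0956). IL11 and RUNX2 no longer passed without high flow replicate 1 (adjusted p = 0.312 and 0.185). RUNX2 no longer passed without high flow replicate 2 (adjusted p = 0.0727). IL11 no longer passed with offsets for length and GC (adjusted p = 0.0782).

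Guidance molecules, known from growing axons and used by tumour cells in migration, had 15 members higher and 2 (0 to 5) lower of 44. Plexins, receptors of semaphorins, were among those higher. PLXNB1 rose from 7.99 and 6 CPM to 14.4 and 14.8 CPM (log2 fold change 1.07, SE 0.17, adjusted p = 0.000984) and was the 1 steady member. PLXNA2 rose from 85.3 and 86.3 CPM to 128 and 129 CPM (log2 fold change 0.58, adjusted p = 0.00278), and PLXND1 from 50.8 and 52.1 CPM to 80.8 and 72.3 CPM (log2 fold change 0.57, adjusted p = 0.00172). SEMA3B, a secreted semaphorin, rose from 10.8 and 8.74 CPM to 24.3 and 20.6 CPM (log2 fold change 1.21, adjusted p = 0.00232). NTN4, a netrin of basement membranes, fell from 93.5 and 106 CPM to 77.8 and 78.6 CPM (log2 fold change -0.35, adjusted p = 0.0389). The number higher became 2 with static replicate 2 left out and 3 with high flow replicate 1 left out. PLXNA2, SEMA3B and NTN4 no longer passed without static replicate 2 (adjusted p = 0.0508, 0.0871 and 0.297). PLXNA2, PLXND1 and NTN4 no longer passed without high flow replicate 1 (adjusted p = 0.0552, 0.0622 and 0.239). NTN4 no longer passed without high flow replicate 2 (adjusted p = 0.158). PLXND1 no longer passed with offsets for length and GC (adjusted p = 0.0706).

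Transporters that set cell volume and pH were higher in 11 of 24 cases and lower in 0 (1 unadjusted, 0 by DESeq2, 0 in every fit), with a median log2 fold change of 0.27. SLC9A3R1, a scaffold for the sodium-proton exchanger and other membrane proteins, rose from 104 and 89 CPM to 161 and 142 CPM (log2 fold change 0.65, SE 0.11, adjusted p = 0.00101) and was steady. SLC4A3, an anion exchanger, rose from 2.54 and 2.87 CPM to 7.25 and 5.59 CPM (log2 fold change 1.24, adjusted p = 0.0027). SLC6A6, the taurine transporter, rose from 187 and 170.0 CPM to 269 and 235 CPM (log2 fold change 0.50, adjusted p = 0.00701). Taurine is an osmolyte by which cells adjust their volume. Transporters that were higher numbered 1 with static replicate 2 or high flow replicate 1 left out and 5 with high flow replicate 2 left out or with the length and GC offsets. SLC4A3 and SLC6A6 no longer passed without static replicate 2 (adjusted p = 0.054 and 0.109). SLC4A3 and SLC6A6 no longer passed without high flow replicate 1 (adjusted p = 0.072 and 0.145).

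Receptors and enzymes of lipid mediators had 6 members higher and 1 lower of 21, and the number higher became 3 with static replicate 2 or high flow replicate 1 left out. PTGS2, the inducible cyclooxygenase of prostaglandin synthesis, measured 190.1 and 222 CPM in static, 392 and 387 CPM in low flow and 318 and 342 CPM in high flow (log2 fold change 0.68, SE 0.10, adjusted p = 0.000564). Here the low flow libraries were the highest of the 6. F2RL1, a receptor cleaved by trypsin-like proteases, showed the same order, at 171 and 154 CPM in static, 272 and 289 CPM in low flow and 258 and 244 CPM in high flow (log2 fold change 0.63, adjusted p = 0.000774). PTGER4, a receptor for prostaglandin E2, rose from 11.4 and 11.6 CPM to 26.8 and 23.6 CPM (log2 fold change 1.14, adjusted p = 0.00419). S1PR5, a receptor for sphingosine 1-phosphate, was the member that fell, from 7.06 and 5.96 CPM to 3.04 and 2.76 CPM (log2 fold change -1.16, adjusted p = 0.0015). PTGS2, F2RL1 and S1PR5 were steady. In the cholesterol list ABCA1, which exports cholesterol, rose from 28.4 and 25.1 CPM to 44.4 and 42.8 CPM (log2 fold change 0.71, adjusted p = 0.00111) and was steady, and 6 of 30 members were higher (2 with high flow replicate 1 left out and 3 with static replicate 2 or high flow replicate 2 left out) and 1 (0 to 2) was lower. PTGER4 no longer passed without static replicate 1 (adjusted p = 0.0649) or static replicate 2 (0.125).

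**Figure D3:**
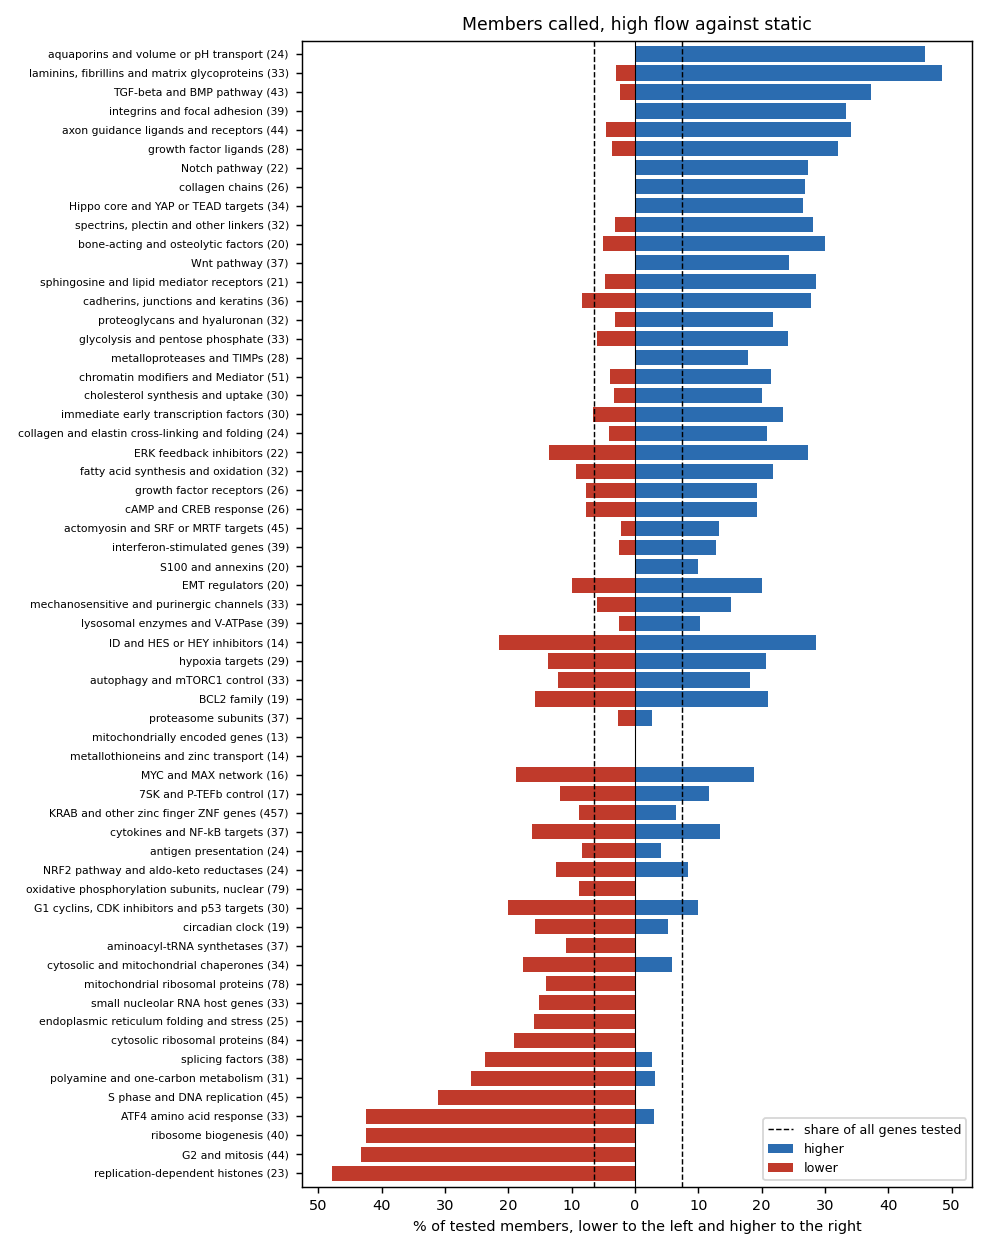
Share of tested members that were higher (to the right) and lower (to the left) under high flow in each gene list drawn, in percent, with the shares of all tested genes (7.49% and 6.43%) as vertical lines. Matrix, integrin and volume or pH lists reach far to the right, and histone, cell cycle, ribosome biogenesis and ATF4 lists reach far to the left.

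DDIT4 (chromosome 10, 72273920 to 72276036), an inhibitor of the growth kinase complex mTORC1, had the smallest adjusted p of all genes named here. It measured 539.8 and 556 CPM in static, 318 and 265 CPM in low flow and 192 and 196 CPM in high flow (log2 fold change -1.50, SE 0.11, adjusted p = 5.61e-07), and the 3 groups did not overlap. Of 33 genes of autophagy and mTORC1 control 6 were higher and 4 (2 to 4) lower, and the number higher became 1 with high flow replicate 1 left out, 2 with static replicate 2 left out and 3 with high flow replicate 2 left out or with the length and GC offsets. ULK1, the kinase that starts autophagy, went up, from 37.6 and 34.6 CPM to 75.7 and 73.3 CPM (log2 fold change 1.05, SE 0.10, adjusted p = 8.91e-06). MAP1LC3B, a protein of autophagosome membranes, went down, from 249 and 251 CPM to 159 and 161 CPM (log2 fold change -0.64, adjusted p = 0.00102). DDIT4, ULK1 and MAP1LC3B were steady.

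Targets of ATF4, the factor that answers to shortage of amino acids, were lower in 14 of 33 cases and higher in 1 (0 to 1), with a median log2 fold change of -0.36. ASNS, asparagine synthetase, fell from 89.3 and 92.4 CPM to 59 and 65.3 CPM (log2 fold change -0.55, SE 0.10, adjusted p = 0.00319). TRIB3, a pseudokinase that feeds back on ATF4, fell from 61.9 and 56.4 CPM to 37.3 and 40.6 CPM (log2 fold change -0.60, adjusted p = 0.00478). PSAT1, an enzyme of serine synthesis, fell from 127 and 139 CPM to 88.2 and 99.9 CPM (log2 fold change -0.50, adjusted p = 0.0068). In each of the 3 the static libraries lay above the high flow libraries without overlap. The enzymes that charge tRNAs with amino acids, many of them ATF4 targets, had 4 members lower (0 with static replicate 2 or high flow replicate 1 left out, 2 with high flow replicate 2 left out and 7 with low flow replicate 1 or low flow replicate 2 left out, with the length and GC offsets, with DESeq2 or with the 4 libraries alone) and 0 higher (2 unadjusted, 0 by DESeq2, 0 to 2 over the fits) of 37. GARS1, the glycyl-tRNA synthetase, fell from 145 and 161 CPM to 97.4 and 108 CPM (log2 fold change -0.57, adjusted p = 0.00316). DDIT4 was the 1 steady member of the ATF4 list, and the number lower was 1 with high flow replicate 1 left out, 2 with static replicate 2 left out, 4 with high flow replicate 2 left out and 7 with static replicate 1 left out. ASNS, PSAT1 and GARS1 no longer passed without static replicate 2 (adjusted p = 0.0551, 0.103 and 0.0723). ASNS, TRIB3, PSAT1 and GARS1 no longer passed without high flow replicate 1 (adjusted p = 0.0947, 0.1, 0.15 and 0.096).

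ASNS carries a motif of the kind ATF4 binds, printed here as TGATGNAA, in the 250 bases before its RefSeq start (GRCh38.p14, chr7:97872409-97872658, minus strand). The sequence is given 5′ to 3′ on the strand of the gene with the match in capitals.
ASNS: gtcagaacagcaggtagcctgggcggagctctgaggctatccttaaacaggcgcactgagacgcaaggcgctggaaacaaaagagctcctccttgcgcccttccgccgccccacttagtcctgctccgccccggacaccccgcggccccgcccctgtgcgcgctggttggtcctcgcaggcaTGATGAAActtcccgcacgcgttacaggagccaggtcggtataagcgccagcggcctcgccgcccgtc
The match begins 68 bases before the start. On either strand the motif was present in 2 of 26 promoters of the ATF4 list (7.69%) and in 1.64% of all promoters of tested genes. The Hippo and YAP list had as large a share, 2 of 25 (8.0%). The motif was in 1 of 22 promoters of the immediate early list (4.55%), 1 of 36 of the G2 and mitosis list and 0 of 38 of the S phase list.

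Genes of ribosome assembly were lower in 17 of 40 cases and higher in 0 (0 unadjusted, 0 by DESeq2, 0 in every fit), with a median log2 fold change of -0.23. NPM1, nucleophosmin of the nucleolus, fell from 1596 and 1756 CPM to 1081 and 1128 CPM (log2 fold change -0.60, SE 0.11, adjusted p = 0.00215). NOP58, a core protein of box C/D snoRNPs, fell from 218 and 243 CPM to 153 and 159 CPM (log2 fold change -0.56, adjusted p = 0.00365). LYAR, a nucleolar protein of dividing cells, fell from 108 and 122 CPM to 75.4 and 67.6 CPM (log2 fold change -0.69, adjusted p = 0.00506). Ribosomal protein genes, whose near-identical copies make single values uncertain, had 16 of 84 lower (1 with static replicate 2 or high flow replicate 1 left out, 2 with high flow replicate 2 left out and 9 with static replicate 1 left out or with the replicate block) and 0 higher (0 unadjusted, 0 by DESeq2, 0 to 1 over the fits) in the cytosolic set. The mitochondrial set had 11 of 78 lower (1 with static replicate 2, high flow replicate 1 or high flow replicate 2 left out and 6 with static replicate 1 left out) and 0 higher (0 unadjusted, 0 by DESeq2, 0 in every fit). MRPL32, of the mitochondrial large subunit, was the 1 steady member and fell from 43.9 and 47.2 CPM to 30.8 and 29.7 CPM (log2 fold change -0.59, adjusted p = 0.00214). SNHG5, a host gene of small nucleolar RNAs, fell from 176 and 168 CPM to 110.3 and 102 CPM (log2 fold change -0.69, adjusted p = 0.000279) and was steady. The number of ribosome assembly genes lower was 1 with static replicate 2 or high flow replicate 1 left out and 4 with high flow replicate 2 left out, against 17 with the offsets. NOP58 and LYAR no longer passed without static replicate 2 (adjusted p = 0.0754 and 0.107). NPM1 and NOP58 no longer passed without high flow replicate 1 (adjusted p = 0.0726 and 0.0867). LYAR no longer passed without high flow replicate 2 (adjusted p = 0.0551).

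Genes of division were lower where they passed. Of 44 genes of G2 and mitosis 19 were lower and 0 higher (0 unadjusted, 0 by DESeq2, 0 in every fit), with a median log2 fold change of -0.32. PTTG1, the securin that holds sister chromatids together, measured 105 and 95.5 CPM in static, 65.2 and 63.2 CPM in low flow and 66.1 and 68.1 CPM in high flow (log2 fold change -0.58, SE 0.10, adjusted p = 0.00112), and was the 1 steady member. HMMR fell from 11.2 and 13.7 CPM to 6.15 and 7.55 CPM (log2 fold change -0.86, SE 0.16, adjusted p = 0.00232). CKS2, a subunit of cyclin-dependent kinases, fell from 81 and 86.4 CPM to 59.7 and 59.5 CPM (log2 fold change -0.49, adjusted p = 0.00406). Of 45 genes of S phase and DNA replication 14 were lower and 0 higher (0 unadjusted, 0 by DESeq2, 0 to 1 over the fits), with a median of -0.27. POLE2, a subunit of DNA polymerase epsilon, fell from 18 and 22.9 CPM to 12.8 and 14.2 CPM (log2 fold change -0.60, adjusted p = 0.00835), and EZH2, the methyltransferase of histone H3 that dividing cells express, from 102 and 106 CPM to 71 and 77.3 CPM (log2 fold change -0.49, adjusted p = 0.00834). The number of G2 and mitosis genes lower was 1 with high flow replicate 1 left out, 4 with static replicate 2 left out, 11 with the length and GC offsets and 12 with static replicate 1 left out, and that of S phase genes was 0 with static replicate 2 or high flow replicate 1 left out, 3 with high flow replicate 2 left out and 9 with static replicate 1 left out. HMMR, CKS2, POLE2 and EZH2 no longer passed without static replicate 2 (adjusted p = 0.0735, 0.0675, 0.175 and 0.104). HMMR, CKS2, POLE2 and EZH2 no longer passed without high flow replicate 1 (adjusted p = 0.0794, 0.0753, 0.146 and 0.147). CKS2 no longer passed with offsets for length and GC (adjusted p = 0.0669).

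Promoters of G2 and mitosis genes share 2 motifs, the CCAAT box and the cell cycle genes homology region, TTTGAA. The 250 bases before the RefSeq starts of HMMR (GRCh38.p14, chr5:163460382-163460631, plus strand) and CKS2 (chr9:89310945-89311194, plus strand) hold both, and are printed 5′ to 3′ with matches on either strand in capitals, as the pair shows the usual order of CCAAT boxes upstream of the homology region.
HMMR: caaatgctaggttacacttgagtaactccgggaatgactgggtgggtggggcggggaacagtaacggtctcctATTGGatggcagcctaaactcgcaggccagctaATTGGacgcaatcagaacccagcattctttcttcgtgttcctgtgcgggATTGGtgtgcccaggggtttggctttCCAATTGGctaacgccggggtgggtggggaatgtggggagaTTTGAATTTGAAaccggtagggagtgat
CKS2: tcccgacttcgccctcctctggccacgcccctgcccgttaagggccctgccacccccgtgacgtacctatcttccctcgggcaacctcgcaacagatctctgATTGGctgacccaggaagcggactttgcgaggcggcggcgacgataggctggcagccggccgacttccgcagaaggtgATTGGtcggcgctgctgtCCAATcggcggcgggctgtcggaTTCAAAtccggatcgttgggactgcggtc
CCAAT was present in 27 of 36 promoters of the G2 and mitosis list (75.0%), against 34.7% of all promoters of tested genes. TTTGAA was present in 17 of them (47.2%) against 8.83%, and both together in 15 (41.7%) against 3.53%. The share with both did not mark the members that fell: it was 7 of 17 lower members and 8 of 19 members that did not pass. The 4 promoters printed here and their motifs were chosen after expression values were seen.

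Checkpoint genes went in both directions. Of 30 G1 cyclins, CDK inhibitors and p53 targets, 3 were higher and 6 lower. The number higher became 6 with no expression filter and 5 with the 4 libraries alone. Both counts were smaller in some fits that left out 1 library. The shares were 10% and 20%, against 7.49% and 6.43% of all tested genes, so the share higher was near that of all genes. CDKN1A, the p21 inhibitor of cyclin-dependent kinases, rose from 122 and 104 CPM to 180.3 and 168 CPM (log2 fold change 0.63, SE 0.10, adjusted p = 0.00102), while low flow lay at 134 and 123 CPM. CDKN1B, the p27 inhibitor, fell from 32.9 and 35.2 CPM to 23.3 and 23.4 CPM (log2 fold change -0.55, adjusted p = 0.00387). BTG2, an antiproliferative p53 target, fell from 5.68 and 5.09 CPM to 2.01 and 2.23 CPM (log2 fold change -1.33, adjusted p = 0.000695). In the BCL2 family, which sets the threshold of apoptosis, 4 of 19 members were higher (1 with static replicate 2 or high flow replicate 1 left out and 2 with high flow replicate 2 left out or with the length and GC offsets) and 3 lower. BBC3, the BH3-only protein PUMA, fell from 16.8 and 11 CPM to 5.97 and 5.52 CPM (log2 fold change -1.27, SE 0.18, adjusted p = 0.000399). PMAIP1, the BH3-only protein NOXA, fell from 130.4 and 133 CPM to 75.6 and 85.3 CPM (log2 fold change -0.71, adjusted p = 0.000274). BMF, a BH3-only protein tethered to the cytoskeleton, rose from 48.3 and 44.8 CPM to 101 and 91.3 CPM (log2 fold change 1.05, SE 0.10, adjusted p = 6.02e-06), with low flow at 93.2 and 98.5 CPM. CDKN1A, BBC3, PMAIP1 and BMF were steady, so that 2 activators of apoptosis were lower and 1 was higher. CDKN1B no longer passed without static replicate 2 (adjusted p = 0.0637) or high flow replicate 1 (0.0747).

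Nuclear and chromatin RNAs included the largest steady decrease. RN7SK (chromosome 6, 52995621 to 52995948), the small nuclear RNA that holds the elongation kinase P-TEFb inactive, measured 29.5 and 36.5 CPM in static, 6.21 and 3.24 CPM in low flow and 3.07 and 3.45 CPM in high flow (log2 fold change -3.34, SE 0.29, adjusted p = 0.00102). It was steady, but a second entry of the annotation overlaps it on the same strand, and it carries no poly(A) tail in cells, so its level in poly(A) libraries is uncertain. HMGB2, a chromatin protein of dividing cells, measured 329 and 332 CPM in static, 185 and 153 CPM in low flow and 160.1 and 158 CPM in high flow (log2 fold change -1.06, SE 0.10, adjusted p = 7.83e-06). Replication-dependent histone genes, whose messages also lack a poly(A) tail and have near-identical copies, were lower in 11 of 23 cases and higher in 0 (0 unadjusted, 0 by DESeq2, 0 in every fit), with a median log2 fold change of -0.85. H1-2, a linker histone, fell from 45 and 42.6 CPM to 27.3 and 27.3 CPM (log2 fold change -0.68, adjusted p = 0.000533), and H2BC21 from 6.56 and 5.65 CPM to 3.07 and 2.85 CPM (log2 fold change -1.04, adjusted p = 0.0022). Both histones and HMGB2 were steady. The number of histone genes lower was 3 with static replicate 2 left out, 4 with high flow replicate 2 left out and 6 with high flow replicate 1 left out.

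Splicing factors were lower in 9 of 38 cases and higher in 1 (0 to 2). CLK1, a kinase of SR proteins, fell from 54 and 65.9 CPM to 36.8 and 36.6 CPM (log2 fold change -0.71, SE 0.11, adjusted p = 0.000696). LUC7L3, a protein that binds the U1 particle, fell from 231 and 234 CPM to 159 and 157 CPM (log2 fold change -0.56, adjusted p = 0.00102). RSRP1, an arginine and serine rich protein that was not in the list, fell from 39.3 and 38.4 CPM to 21.5 and 22 CPM (log2 fold change -0.84, adjusted p = 0.000105). These 3 were steady. Among chromatin modifiers 11 of 51 were higher (0 with high flow replicate 1 left out, 2 with static replicate 2 left out or with the length and GC offsets and 6 with static replicate 1 or high flow replicate 2 left out) and 2 (0 to 4) lower. HDAC9, a histone deacetylase, fell from 31.5 and 34.6 CPM to 16.6 and 18.8 CPM (log2 fold change -0.90, adjusted p = 0.0027), while HDAC4, of the same class, rose from 25.6 and 25.3 CPM to 39.9 and 37.4 CPM (log2 fold change 0.61, adjusted p = 0.00339). The number of splicing factors lower was 2 with static replicate 2, high flow replicate 1 or high flow replicate 2 left out. HDAC9 and HDAC4 no longer passed without static replicate 2 (adjusted p = 0.0907 and 0.0568). HDAC9 and HDAC4 no longer passed without high flow replicate 1 (adjusted p = 0.0581 and 0.0766).

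**Figure D4:**
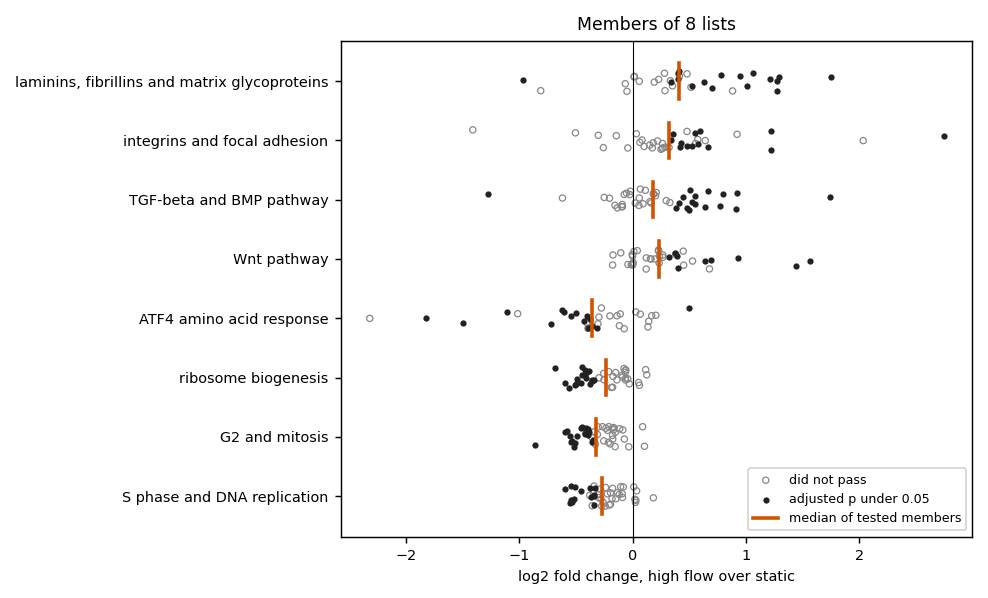
Log2 fold change of each tested member of 8 gene lists, one point per gene, with members that passed filled, those that did not open, and the median of each list as a bar. Members of the matrix, adhesion, TGF-beta and Wnt lists lie mostly above 0, and members of the ATF4, ribosome biogenesis, mitosis and S phase lists mostly below 0.

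Targets of the hypoxia factor HIF split by gene, with 6 of 29 higher, 4 lower and a median log2 fold change of 0.35. In other fits the higher members numbered 1 with static replicate 2 or high flow replicate 1 left out, 3 with static replicate 1 or high flow replicate 2 left out, 12 with no expression filter and 16 with low flow replicate 1 or low flow replicate 2 left out or with the 4 libraries alone. HILPDA, a lipid droplet protein, fell from 23.7 and 25 CPM to 8.31 and 8.39 CPM (log2 fold change -1.54, SE 0.15, adjusted p = 1.3e-05), with low flow at 8.8 and 12.7 CPM, though it shares exons with other annotated genes. ANKRD37, another small HIF target, fell from 27.8 and 35.8 CPM to 19.5 and 16.2 CPM (log2 fold change -0.84, adjusted p = 0.00102). SLC2A1, the glucose transporter GLUT1, rose from 334 and 298 CPM to 537 and 478 CPM (log2 fold change 0.68, SE 0.12, adjusted p = 0.00258). ANGPTL4, also a HIF target, rose and DDIT4, another, fell, with the values given above. HILPDA, ANKRD37, DDIT4 and ANGPTL4 were steady, 3 lower and 1 higher. ARRDC3, an arrestin-like protein that acts on glucose uptake, measured 125 and 152 CPM in static, 123 and 146 CPM in low flow and 70.5 and 65.3 CPM in high flow (log2 fold change -1.03, adjusted p = 3.43e-05), so that only high flow was low. Of 33 genes of glycolysis and the pentose phosphate pathway 8 were higher and 2 (0 to 4) lower, and the number higher became 0 with static replicate 2 or high flow replicate 1 left out, 3 with static replicate 1 or high flow replicate 2 left out, 4 with the length and GC offsets, 14 with the 4 libraries alone, 15 with low flow replicate 1 or low flow replicate 2 left out and 16 with no expression filter. SLC2A1 no longer passed without static replicate 2 (adjusted p = 0.0725) or high flow replicate 1 (0.0658).

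Cytokines and targets of NF-kB were lower in 6 of 37 cases and higher in 5 (1 to 6), with a median log2 fold change of -0.10. BIRC3, an inhibitor of apoptosis induced by NF-kB, measured 49.1 and 54 CPM in static, 38 and 34.5 CPM in low flow and 25 and 31.5 CPM in high flow (log2 fold change -0.87, SE 0.12, adjusted p = 0.000284), and was steady. IL24, a cytokine of the IL-10 family, fell from 9.48 and 8.69 CPM to 3.84 and 4.99 CPM (log2 fold change -1.03, adjusted p = 0.00163). CXCL3, a chemokine for neutrophils, fell from 6.51 and 7.43 CPM to 3.91 and 4.04 CPM (log2 fold change -0.81, adjusted p = 0.00589). IRF1, a factor of the interferon response, rose from 64.6 and 56.1 CPM to 92.8 and 94.9 CPM (log2 fold change 0.64, SE 0.11, adjusted p = 0.00108) and was steady, in a list of 39 interferon-stimulated genes with 5 higher (1 with static replicate 2 or high flow replicate 1 left out, 2 with high flow replicate 2 left out and 3 with the replicate block) and 1 (0 to 1) lower. The number of NF-kB targets lower was 1 with high flow replicate 1 left out. CXCL3 no longer passed without static replicate 2 (adjusted p = 0.099). IL24 and CXCL3 no longer passed without high flow replicate 1 (adjusted p = 0.0638 and 0.0904).

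Mitochondrial transcripts are given by their class. Both strands of the mitochondrial genome are copied as long precursors, from which tRNAs, rRNAs and mRNAs are cut. Of the 13 mitochondrial mRNAs none passed, with a median log2 fold change of -0.20 and a range from -0.50 to 0.51. In the edgeR test 0 of these 13 also had an unadjusted p under 0.05, and DESeq2 called 0, while the fit with no expression filter called 2 higher. Of the 22 tRNAs 8 were higher and 0 lower, with a median of 0.72, and 18 of them had both high flow values above both static values, against 29.9% of all tested genes. The number of tRNAs higher was 2 with high flow replicate 1 left out, 4 with static replicate 2 left out and 5 with static replicate 1 or high flow replicate 2 left out or with the length and GC offsets, and 1 was lower with low flow replicate 1 left out. In 2 of them, MT-TG (21 and 35.3 CPM in static and 13.6 and 10.9 CPM in high flow) and MT-TH (23.1 and 32.6 CPM and 19.3 and 12.1 CPM), both high flow values lay below both static values, against 29.4% of all tested genes. MT-TF, the phenylalanine tRNA, is the first gene of the mitochondrial map and measured 97.5 and 98.6 CPM in static, 182 and 145 CPM in low flow and 257 and 337 CPM in high flow (log2 fold change 1.60, SE 0.14, adjusted p = 3.27e-05). Next to it lies MT-RNR1, the 12S rRNA, at 1332 and 1839 CPM in static and 3269 and 3397 CPM in high flow (log2 fold change 1.07, SE 0.18, adjusted p = 0.00545). MT-RNR2, the 16S rRNA that follows, did not pass (log2 fold change 0.39, adjusted p = 0.437), nor did MT-ND1, the first mRNA of the map (log2 fold change 0.02, adjusted p = 0.977). Along the first genes of the map the log2 fold changes were thus 1.60, 1.07, 1.18 for the valine tRNA MT-TV, 0.39, 0.29 for the leucine tRNA MT-TL1, which did not pass (adjusted p = 0.542), and then 0.02. MT-TV did not pass (adjusted p = 0.136), although it did without static replicate 1 (0.0101) or static replicate 2 (0.000566). MT-TI, the isoleucine tRNA farther on, rose from 15.9 and 12.8 CPM to 33.4 and 30.5 CPM (log2 fold change 1.16, SE 0.12, adjusted p = 1.83e-05), with low flow already at 32.5 and 31.7 CPM. Mature tRNAs and rRNAs are poorly captured by poly(A) selection, and the mitochondrial genes named here, MT-TF included, were picked with results of these data known. The whole mitochondrial share of counts did not separate the groups, as given above.

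**Figure D5:**
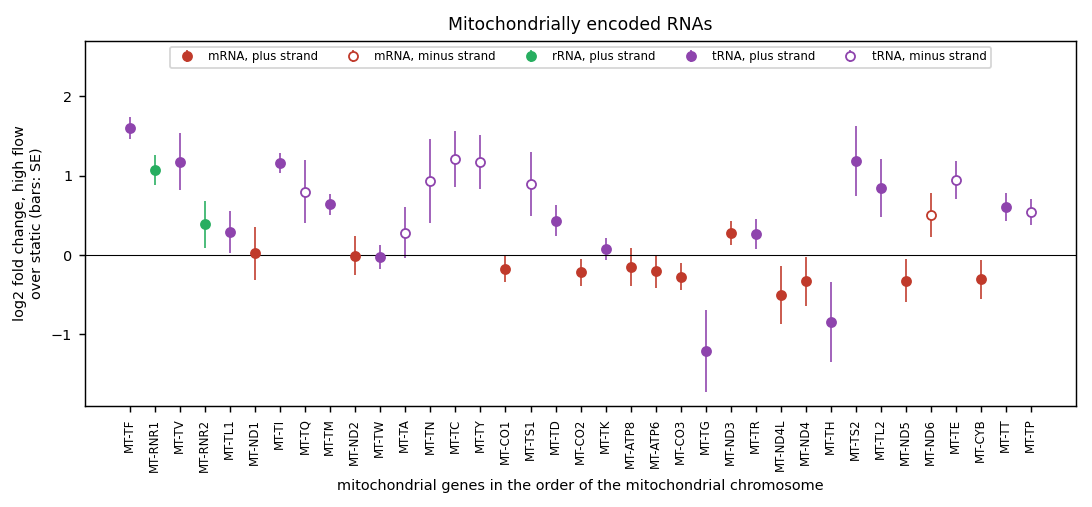
Log2 fold change of high flow over static for the 37 mitochondrial genes in their order along the mitochondrial genome, with SE bars, by RNA class and strand. The tRNAs lie mostly above 0 and the 13 mRNAs lie near it, between -0.50 and 0.51.

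Across all genes the change went with base composition. Over 20012 tested genes with annotation, Spearman's rank correlation between log2 fold change and GC content was 0.31 (a description across genes, which are not independent), and with transcript length it was 0.06. The median GC content was 57.3% in genes that were higher, 43.2% in genes that were lower and 48.5% in all tested. In the tenth of genes with the lowest GC content 1.70% were higher and 13.8% lower, and in the tenth with the highest 18.3% were higher and 1.90% lower. With offsets for length and GC content the correlation was -0.01, and 1006 genes were higher and 989 lower. Of the 2878 genes that had passed, 1514 passed again in the same direction, and 2 had a fold change of the opposite sign, whether or not they passed. Steady genes passed with the offsets by definition, and their median GC content was 56.7% where higher and 46.7% where lower. The part of GC content in the results was not tested beyond these offsets.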

How the data were processed

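Poly(A) RNA from the 6 libraries was sequenced after a stranded mRNA kit, per the labels' protocols. The authors deposited raw counts per gene for 60591 gene symbols, 1 column per library, made with STAR and featureCounts on hg38 per the submitters' processing notes. Versions, settings and annotation are not given in the sources used here. Columns were matched to libraries by the column names in the labels, and 0 columns of other samples were left unused. The test was edgeR's quasi-likelihood F-test (edgeR 4.0.16, R 4.3.3) with TMM scaling and robust dispersions. It was fitted to the 3 groups of libraries together (residual degrees of freedom: 3), with the default filter at a minimum count of 10. Tests were two-sided, with Benjamini-Hochberg adjustment over 20676 genes and a threshold of 0.05. CPM values were computed with the TMM factors. The fit was run on simulated counts whose spread was estimated from these libraries and which held no lane effect. That run cannot address lane or the dependence on single libraries.

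The comparison, lists, tests and named genes were chosen with earlier results of these data known. Named genes were the 20 largest steady increases and the 20 largest steady decreases, up to 6 members per list and direction by p, and a fixed panel. Length and GC came from GENCODE 29, in which 56509 symbols matched, and promoters from RefSeq (11894 tested genes matched). Genes that share exons on 1 strand or have near-identical copies have uncertain values. Alternatives were RLE scaling, no filter, DESeq2 1.42.0, the 4 libraries alone, a replicate block, length and GC offsets, and each library left out. Results for a few genes and 2 lists are not reported here.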

Additional observations from a re-analysis of the deposited data

How the results depend on the processing

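The counts of 1549 genes higher and 1329 lower stayed within 1.5 times under RLE scaling (1537 and 1344), no expression filter (2221 and 1328), DESeq2 (1547 and 1213) and a fit of the 4 libraries alone (2104 and 1864). With length and GC offsets they were 1006 and 989. Leaving out 1 library gave 178 to 2178 genes higher and 122 to 1838 lower, with the lowest counts without high flow replicate 1. The labels number the libraries of each group 1 and 2, and with the replicate number as a block 1252 genes were higher and 1014 lower. Deviations of same-numbered libraries correlated at -0.0514 for static and high flow, -0.144 for static and low flow and 0.138 for low and high flow. With 2 libraries a group these values cannot show whether same-numbered libraries belong together, and no pairing was assumed. Of 134 of the tested genes named in the text, 120 passed in the main fit and 67 were steady. The steady genes passed without each of the 4 compared libraries and with the offsets by definition. Among the 120 that passed, 8 no longer did with the offsets and 1 (NTN4) with the block. CXCR4, which passed in none of these fits, ranged from a log2 fold change of -0.13 without high flow replicate 1 to 0.94 without static replicate 2. MT-ND1, which likewise passed in none, ranged from -0.30 without static replicate 1 to 0.44 without static replicate 2. EGFL7, which did not pass either, went from a log2 fold change of 0.14 to -0.0928 with the offsets. With 2 libraries a group, a fit without 1 of them leaves a lone library that is assumed to vary like the other groups, so calls lost there measure precision as well as effect. The static libraries had the smaller depth, and genes under the minimum count were not tested.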
